A study of Mus musculus with 2 samples.

Results

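The genes described here are 10 of the 53801 listed in each count file: Bin1, Picalm, Cd2ap, Sorl1, Inpp5d, Plcg2, Abi3, Grn, Ms4a6d and Abca7. They are mouse orthologues of genes that carry inherited risk for late-onset Alzheimer's disease or another dementia in people. For Ms4a6d that risk lies with a gene cluster. The 10 were listed by name as risk genes expressed in microglia, with earlier results of these data known. Their levels therefore do not describe risk genes at large. Each was found through its Ensembl identifier, and all 10 passed a minimum of 10 counts in both libraries. RNA was sequenced in bulk from microglia, the resident macrophages of the brain, sorted by flow cytometry from the left hemisphere of 2 male Cx3cr1(CreER/wt) mice 3 days after sham surgery, with 1 mouse per library. The mice were 8 to 10 weeks old on a C57BL/6 background, and both had received intraperitoneal tamoxifen at 75 mg/kg per day for 4 days, started 14 days before surgery. Both therefore carried Cre-ER in place of one Cx3cr1 allele, with no floxed gene, and Cx3cr1 drives this Cre in microglia and in other macrophages of the brain. The sample labels give the treatment as none, while the titles name sham surgery. Libraries from the ischemic arm of the study were not analysed here, so the 2 libraries form 1 group, no condition was compared and no p-value was computed.

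Microglia take up lipoproteins, protein aggregates and cell debris, pass them through endosomes, and degrade them in lysosomes. Several of these risk genes act along that route: Bin1, Picalm and Cd2ap shape or link membranes and actin during endocytosis, Sorl1 sorts cargo between endosomes and the Golgi, and Grn encodes a lysosomal protein. Inpp5d, Plcg2 and Abi3 act behind immune receptors such as TREM2, where phosphoinositide lipids are made, cleaved or dephosphorylated and the actin network is rebuilt.

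The libraries held 23381026 counts (replicate 1) and 41142609 counts (replicate 2), and 13445 genes reached 10 counts in both. The 10 microglial markers were all above that minimum and summed to 51226 and 47240 CPM (counts divided by all counts on genes and scaled to 1e+06). Csf1r (14910 and 5934 CPM) and Sall1 (337 and 146 CPM) were more than 2-fold lower in replicate 2, against 25.9% of all counted genes. The other 8 were within 2-fold. Several marker lists of other cells differed between the libraries. All 10 immature neutrophil markers were more than 2-fold higher in replicate 2 (summed 1658 and 31199 CPM), as were 8 of 9 mature neutrophil markers (3523 and 31667 CPM), although the sort excluded Ly6G+ cells. Basophil and mast cell markers summed to 6 and 6936 counts, with Prss34, Mcpt8, Ms4a2 and Fcer1a at 0 in replicate 1. Monocyte markers summed to 676 and 3337 CPM, most of it Chil3 (455 and 2901 CPM). Of these 5 markers, Chil3 and Ly6c2 were more than 2-fold higher in replicate 2 (5.74% of all counted genes were), and 3 were within 2-fold. Choroid plexus markers summed to 23.7 and 365 CPM, of which Ttr held 21.9 and 356 CPM. Border macrophage markers summed to 642 and 281 CPM, B cell markers to 570 and 778 CPM, oligodendrocyte markers to 233 and 239 CPM and astrocyte markers to 226 and 177 CPM. Neuronal markers summed to 3.21 and 4.96 CPM and endothelial markers to 22.0 and 16.8 CPM. No marker was at 0 in both libraries. The part of these other cells in the values below was not tested, and in bulk RNA fewer cells of a type and less RNA per cell cannot be told apart.

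The 10 genes together took 0.642% of all counts in replicate 1 and 0.543% in replicate 2, or 6417 and 5425 CPM. The mean was 5921 ± 701 CPM (SD, n = 2). Grn alone made up 55.1% and 67.6% of that sum, and without it the remaining 9 genes summed to 2882 and 1758 CPM. Counts per gene ran from 300 (Abca7 in replicate 2) to 150881 (Grn in replicate 2), and the values of replicate 2 rest on the deeper library. All intervals given below are 95% intervals that cover counting error only, since the reads carried no molecular identifiers.

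Among the endocytic genes, Bin1 was the most abundant. Bin1 (ENSMUSG00000024381, GRCm38 chromosome 18, 32377217 to 32435736, plus strand) encodes an amphiphysin-type protein that curves membranes. It had 16886 counts in replicate 1 and 34006 in replicate 2, or 722 and 827 CPM. Both mice gave similar levels, with a mean of 774 ± 73.8 CPM (SD, n = 2) and a log2 ratio of replicate 2 over replicate 1 of 0.19 (0.17 to 0.22).

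Picalm (ENSMUSG00000039361, chromosome 7, 90130213 to 90213465, plus strand) encodes an adaptor that binds clathrin and phosphoinositides at the forming vesicle. Its 5316 and 6407 counts gave 227 and 156 CPM, a mean of 192 ± 50.7. Replicate 2 was lower, with a log2 ratio of −0.55 (−0.60 to −0.49). Cd2ap (ENSMUSG00000061665, chromosome 17, 42792951 to 42876424, minus strand) encodes a scaffold that joins receptors and endosomes to actin. It had 1019 and 886 counts, or 43.6 and 21.5 CPM, and a mean of 32.6 ± 15.6. Its log2 ratio was −1.02 (−1.15 to −0.89), an interval that spans the 2-fold limit. Sorl1 (ENSMUSG00000049313, chromosome 9, 41964720 to 42124297, minus strand) encodes a sorting receptor that carries the amyloid precursor protein away from the compartments in which it is cleaved. With 954 and 1604 counts it had 40.8 and 39.0 CPM, a mean of 39.9 ± 1.28. Sorl1 was the only one of the 10 whose counting interval of the log2 ratio included 0 (−0.07, −0.18 to 0.05).

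Among the genes behind immune receptors, Inpp5d and Plcg2 were lower in replicate 2 and Abi3 differed less. Inpp5d (ENSMUSG00000026288, chromosome 1, 87620312 to 87720507, plus strand) encodes SHIP1, a phosphatase that removes a phosphate from the phosphoinositide made by PI 3-kinase and so limits receptor signals. It had 26028 counts in replicate 1 and 9575 in the deeper replicate 2, or 1113 and 233 CPM. The mean was 673 ± 623 CPM and replicate 2 was 4.78-fold lower (4.67 to 4.90), a log2 ratio of −2.26. Inpp5d was second to Grn by CPM in replicate 1 and came after Bin1 and Ms4a6d in replicate 2.

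Plcg2 (ENSMUSG00000034330, chromosome 8, 117498291 to 117635142, plus strand) encodes the phospholipase that cleaves membrane phosphoinositide below TREM2 and other receptors. Its 6450 and 4256 counts gave 276 and 103 CPM, a mean of 189.7 ± 122. Replicate 2 was 2.67-fold lower (log2 ratio −1.42, −1.47 to −1.36). Abi3 (ENSMUSG00000018381, chromosome 11, 95830074 to 95842476, minus strand) encodes a component of the WAVE complex, which starts branched actin. It had 3619 and 5177 counts, or 155 and 126 CPM, with a mean of 140.3 ± 20.5 and a log2 ratio of −0.30 (−0.36 to −0.24). The difference for Abi3 was thus small beside those of Inpp5d and Plcg2. The level of Abi3 has a limit of its own. The annotated exons of Abi3 lie on the strand opposite to those of Zfp652 over 2913 bp (70.1% of the merged exons of Abi3), Phospho1 over 1708 bp (41.1%) and Gngt2 over 234 bp (5.63%). Of the stretches of 75 bases, the read length, in Abi3 transcripts, 62.1% also occurred in transcripts of other genes when strand was ignored. Gngt2 had 2528 and 4588 counts, Zfp652 1586 and 1313, and Phospho1 4 and 11. The library kits do not mark strand, so reads from the shared exons of these genes and of Abi3 cannot be told apart.

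Grn was the highest of the 10. Grn (ENSMUSG00000034708, chromosome 11, 102430315 to 102437048, plus strand) encodes progranulin, a secreted and lysosomal protein whose partial loss in people causes frontotemporal dementia. It had 82660 and 150881 counts, or 3535 and 3667 CPM, and a mean of 3601 ± 93.3 (SD, n = 2). Replicate 2 exceeded replicate 1 by a log2 ratio of 0.05 (0.04 to 0.07). Ms4a6d (ENSMUSG00000024679, chromosome 19, 11586604 to 11604849, minus strand) encodes a membrane protein with several membrane-spanning segments, from the gene cluster that in people is linked to soluble TREM2 levels. Its 6234 and 10117 counts gave 267 and 246 CPM, a mean of 256 ± 14.7 and a log2 ratio of −0.12 (−0.16 to −0.07). Abca7 (ENSMUSG00000035722, chromosome 10, 79996494 to 80015572, plus strand) encodes an ATP-driven transporter that moves phospholipid across the membrane. It had 871 counts in replicate 1 and 300 in replicate 2, or 37.3 and 7.29 CPM. The mean was 22.3 ± 21.2 CPM and replicate 2 was 5.11-fold lower (4.48 to 5.84), the largest difference among the 10.

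**Figure D1:**
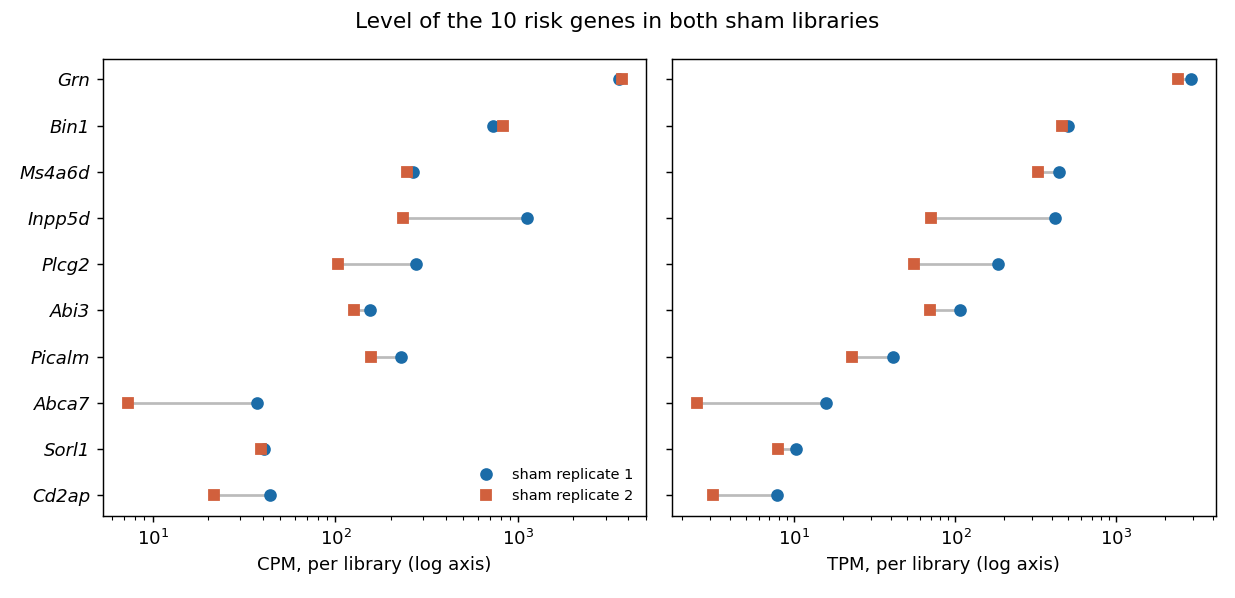
Level of each of the 10 genes in sham replicate 1 (circles) and replicate 2 (squares), joined by a grey line, as CPM on the left and TPM on the right (both log axes), ordered by mean TPM. Grn lies at 3535 and 3667 CPM, while the 2 points of Inpp5d (1113 and 233 CPM) and Abca7 (37.3 and 7.29 CPM) stand farthest apart.

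Promoter sequence was read for the members with an entry in the RefSeq promoter table (GRCm38.p6), as a description of the start regions of genes whose RNA was measured above. That table holds 8 promoters of 7 of the genes. Bin1, Abi3 and Ms4a6d had no entry. The 250 bases before each start were searched for the palindromic E-box CACGTG, the core of the site that TFEB and other lysosomal or clock regulators read, and on both strands for GAGGAAGT, the site of PU.1, the factor that defines the myeloid lineage. No member held both motifs. CACGTG occurred in 3 of the 7 genes (Picalm, Plcg2 and Sorl1) and in 6.02% of all 32851 promoters. GAGGAAGT occurred in 1 of the 7 (Inpp5d) and in 2.44% of all promoters. A match describes letters only and says nothing of binding. The 40 bases around each match are printed on the strand of the gene, with the motif in capitals.
Picalm, GRCm38 chr7:90130005-90130044 (+): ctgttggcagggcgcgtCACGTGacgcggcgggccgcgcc
Plcg2, GRCm38 chr8:117498235-117498274 (+): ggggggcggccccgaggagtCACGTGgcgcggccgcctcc
Sorl1, GRCm38 chr9:42124298-42124337 (-): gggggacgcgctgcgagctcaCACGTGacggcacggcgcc
Inpp5d, GRCm38 chr1:87620272-87620311 (+): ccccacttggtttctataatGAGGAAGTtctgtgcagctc
The matches in Plcg2, Sorl1 and Inpp5d ended 14, 13 and 12 bases before the RefSeq start, and that in Picalm 185 bases before it. For Plcg2 the RefSeq start lies upstream of the gene start given above. The genes that share CACGTG did not share a level or a ratio: their log2 ratios were −1.42 (Plcg2), −0.55 (Picalm) and −0.07 (Sorl1).

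Levels of different genes were compared per length, as TPM (counts per base of merged exons, scaled to 1e+06 over all genes). On that scale the order by the mean of both libraries was Grn (2657 ± 336), Bin1 (479.5 ± 27.5), Ms4a6d (381 ± 79.4), Inpp5d (243 ± 245), Plcg2 (119 ± 90.1), Abi3 (87.7 ± 25.9), Picalm (31.9 ± 13), Abca7 (9.08 ± 9.35), Sorl1 (9.07 ± 1.67) and Cd2ap (5.46 ± 3.33). For 5 pairs of neighbours in that order the ranges of the 2 libraries did not overlap. Grn was 5.54-fold above Bin1, Bin1 1.26-fold above Ms4a6d, Abi3 2.75-fold above Picalm, Picalm 3.51-fold above Abca7 and Sorl1 1.66-fold above Cd2ap. The ranges overlapped for Ms4a6d and Inpp5d, Inpp5d and Plcg2, Plcg2 and Abi3, and Abca7 and Sorl1. Within each library, however, Ms4a6d stayed above Inpp5d (437 against 417 TPM in replicate 1, 325 against 70.2 in replicate 2). Inpp5d likewise stayed above Plcg2 (417 against 183, and 70.2 against 55.2). Plcg2 and Abi3, and Abca7 and Sorl1, changed order between the libraries. In replicate 2 alone Abi3 (69.4 TPM) came before Plcg2 (55.2), and Abca7 (2.47) came last, below Cd2ap (3.11). The last 3 places also depend on the length used. Cd2ap has 15864 bp of merged exons and a longest transcript of 5610 bp, and with the longest transcript as the length the order ended Cd2ap, Sorl1, Abca7. Against the 13445 genes counted, 5 of the 10 were above the 90th percentile of TPM (Grn at 99.6, Bin1 at 98.2, Ms4a6d at 97.7, Inpp5d at 96.2 and Plcg2 at 91.9). Abca7, Sorl1 and Cd2ap lay below the 50th (47.8, 47.8 and 37.0). By CPM, which does not divide by length, Sorl1 and Cd2ap lay at percentiles 69.1 and 64.1.

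Each gene was next set beside its paralogues, the relatives encoded elsewhere in the genome, as a percent of the summed TPM of the family. Picalm was nearly the sole source of its family's RNA, at 99.8% and 99.6%, with 7 and 16 counts of the neuronal relative Snap91. Inpp5d took 97.1% and 98.2% beside Inppl1 (SHIP2), and Plcg2 took 89.8% and 93.6% beside Plcg1. Inppl1 (12.3 and 1.29 TPM) and Plcg1 (20.7 and 3.76 TPM) were also more than 2-fold lower in replicate 2, at log2 ratios of −2.94 and −2.15. These 3 families were thus represented almost wholly by the member linked to risk, in both mice.

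In the families of Bin1, Cd2ap and Sorl1 a relative was higher in both libraries. Bin1 took 30.9% and 32.1%, below the myeloid relative Bin2 (1026 and 859 TPM) and above Bin3 (88.4 and 117 TPM). Amph, the neuronal amphiphysin, had 0 and 6 counts. Cd2ap took 16.9% and 10.5% of a pair with Sh3kbp1 (38.4 and 26.6 TPM), which encodes the related endocytic adaptor CIN85. The mean share of Cd2ap was 13.7% over merged exons and 24.4% with the longest transcript as the length. Sorl1 took 24.0% and 36.7%, with Sort1, the sortilin gene, at 32.4 and 13.5 TPM. Sorcs1 had 0 counts in both libraries, Sorcs2 had 3 and 10, and Sorcs3 had 1 and 3. The expressed sorting receptors of that family were therefore Sorl1 and Sort1. Abi3 took 51.6% and 44.9% and changed places with Abi1 (87.9 and 83.5 TPM), since the ratio of Abi3 to Abi1 was 1.21 in replicate 1 and 0.831 in replicate 2. Abi2 was lower (11.7 and 1.77 TPM, log2 ratio −2.41).

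Abca7 ranked 4 among the 10 ABCA transporters listed and took 6.33% and 3.90% of their TPM. Abca9 (130.4 and 29.5 TPM), Abca1 (74.9 and 28.7 TPM), the cholesterol exporter, and Abca3 (19.7 and 1.95 TPM) were higher by mean. All 6 ABCA genes that were counted, Abca7 with Abca1, Abca2, Abca3, Abca6 and Abca9, were more than 2-fold lower in replicate 2, with log2 ratios between −3.03 and −1.07, against 25.9% of all counted genes. A GC and length adjustment subtracted the median of genes of like GC content and length. After it 3 of the 6 were past 2-fold lower (Abca3, Abca6 and Abca9), against 12.7% of all genes, and Abca7 stood at −0.37. Ms4a6d took 52.5% and 41.7% of the TPM of the 15 cluster genes listed, ahead of Ms4a4a (135 and 145 TPM) and Ms4a6b (105 and 124 TPM). Of the 9 listed genes that were counted, 1 was past 2-fold higher and none lower, against 5.74% and 25.9% of all counted genes. That gene was Ms4a3, at 87 and 933 counts and a log2 ratio of 2.61. Ms4a3 is a gene of granulocyte precursors and basophils, whose markers were higher in the same library. Stretches of 75 bases shared with other genes made up 4.25% of Bin1, 1.97% of Cd2ap, 0.408% of Ms4a6d (with Ms4a6b), 0.356% of Sorl1, 0.241% of Grn, 0.232% of Inpp5d, and 0% of Plcg2, Picalm and Abca7. Exons on the opposite strand overlapped Bin1 (A830052D11Rik, 256 bp, 53 and 73 counts), Grn (Fam171a2, 68 bp, 2 and 0 counts) and Sorl1 (Gm16214, 185 bp, 3 and 7 counts).

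**Figure D2:**
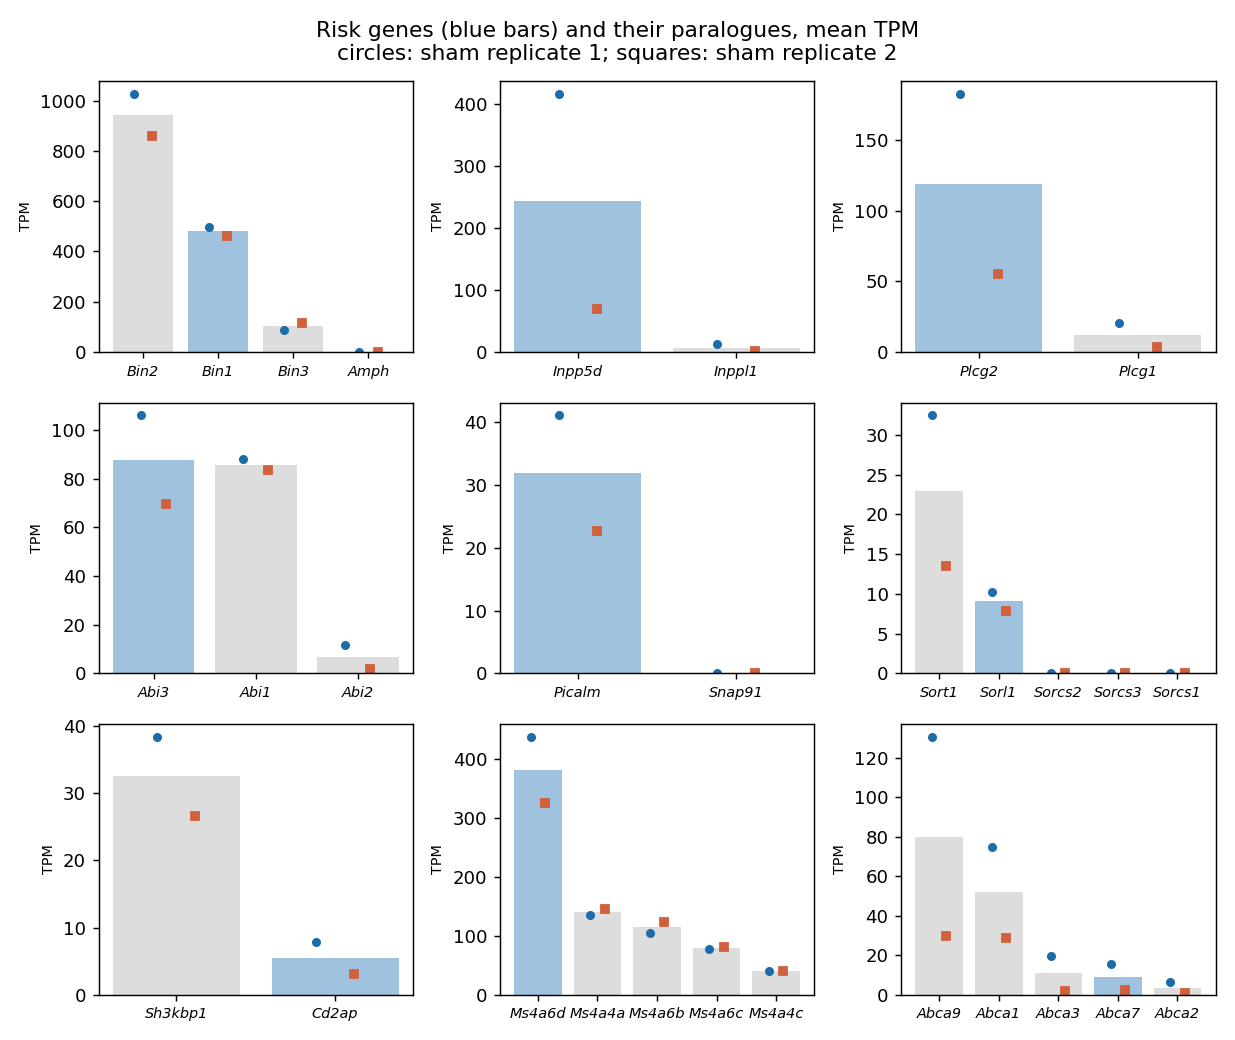
TPM (linear axes that start at 0 and differ between panels) of each member with paralogues, as a blue bar, and of its relatives, as grey bars, with up to 5 genes per family. Bars are means of both sham libraries, circles replicate 1 and squares replicate 2. Picalm, Inpp5d and Plcg2 stand far above their relatives, while Bin2 (1026 and 859 TPM) lies above Bin1 and Sh3kbp1 (38.4 and 26.6 TPM) above Cd2ap.

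The difference between the 2 mice was then read against all genes. On the CPM scale replicate 2 was lower for 8 of the 10 genes and higher for Grn and Bin1, and 61.5% of all 13445 counted genes were lower in replicate 2. By TPM the direction reversed for Grn (2894 and 2419) and Bin1 (499 and 460), which were lower in replicate 2, so their sign depends on the scale. Inpp5d, Plcg2, Cd2ap and Abca7 were more than 2-fold lower in replicate 2, 4 of 10, against 25.9% of all counted genes. None of the 10 was more than 2-fold higher, against 5.74% of all counted genes. The median log2 ratio was −0.42 over the 10 and −0.26 over all counted genes, whose SD was 1.06. Abca7 and Inpp5d lay at percentiles 3.57 and 4.27 of the ratios of all genes, Plcg2 at 16.0 and Cd2ap at 25.4. With TMM scaling the median of all counted genes moved to −0.01. On that scale Cd2ap (−0.76) no longer passed 2-fold, while Inpp5d (−2.0), Plcg2 (−1.16) and Abca7 (−2.10) did. Sorl1 (0.19) and Ms4a6d (0.14) changed sign with that scaling and were higher in replicate 2. Grn (0.31) and Bin1 (0.45) were higher with it too, as on the CPM scale. With totals that left out the neutrophil marker genes, Inpp5d was at −2.17, Plcg2 at −1.33, Abca7 at −2.27 and Cd2ap at −0.93. The share of 25.9% is for CPM on file totals. No such share is given for TMM or for totals without neutrophil marker genes.

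**Figure D3:**
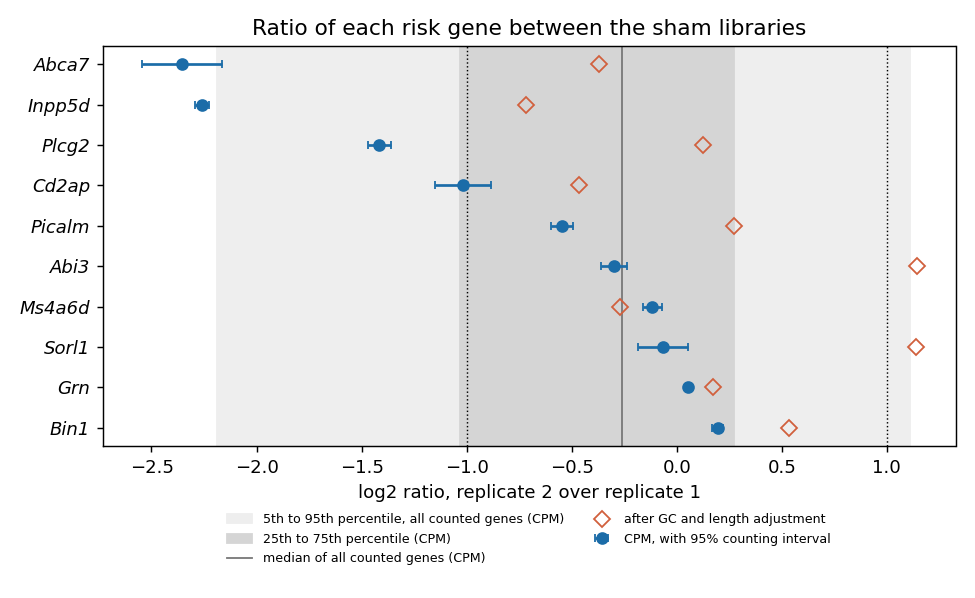
Log2 ratio of replicate 2 over replicate 1 for each gene on the CPM scale (filled circles, bars for 95% counting intervals) and after the adjustment for GC content and transcript length (open diamonds). Grey bands and line give percentiles and the median of all counted genes on the CPM scale, and dotted lines mark 2-fold. Abca7 (−2.35) and Inpp5d (−2.26) lie lowest on the CPM scale and move to −0.37 and −0.72 after adjustment, while Abi3 and Sorl1 move to 1.14.

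The ratio between the libraries followed transcript length. The counted genes were divided into 10 equal groups by the length of the longest annotated transcript. The median log2 ratio was 0.17 in the third group (1657 to 2143 bases), and it was −0.77, −0.96 and −1.05 in the 3 longest groups, which began at 4226 bases. The 4 genes past 2-fold all belonged to those 3 groups (Inpp5d 4937 bases, Plcg2 4298, Cd2ap 5610 and Abca7 6696), where 47.2% of all genes were more than 2-fold lower in replicate 2. Picalm (8209 bases) and Sorl1 (10715 bases) were as long but were not past 2-fold. The 4 shorter members, Ms4a6d (1418), Grn (2340), Bin1 (2682) and Abi3 (4006), were not past 2-fold either, in groups where 16.8% of genes were. GC content moved with the ratio to a lesser degree, from a median of −0.13 in the lowest of 10 equal GC groups, which held Cd2ap (38.4% GC), to −0.64 in the highest, which held Abi3 (59.7%) and Abca7 (58.9%).

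**Figure D4:**
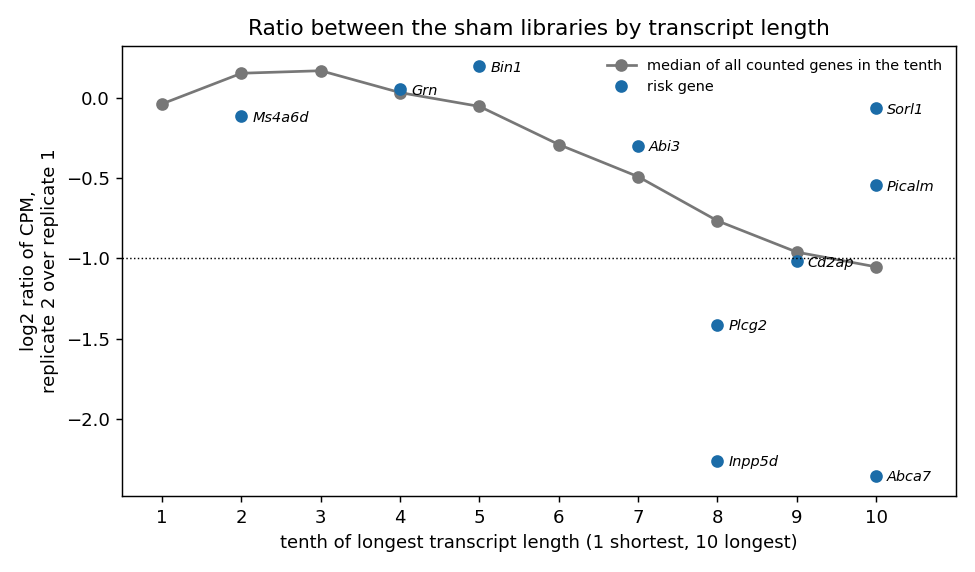
Log2 ratio of replicate 2 over replicate 1 (CPM scale) against the 10 equal groups of counted genes by longest transcript length, from shortest (1) to longest (10). The grey line joins the median of each group, blue points are the 10 genes, and the dotted line marks 2-fold lower. The medians go from 0.17 in the third group to −1.05 in the longest, and Inpp5d and Abca7 lie below that line while Sorl1 lies above it.

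The median of genes in the same group of both GC content and length was therefore subtracted from each ratio. None of the 10 was then more than 2-fold lower, against 12.7% of all genes, and 2 of the 10, Abi3 and Sorl1 (1.14 each), were more than 2-fold higher, against 9.70%. Inpp5d stood at −0.72, Cd2ap at −0.47, Abca7 at −0.37 and Ms4a6d at −0.27. Plcg2 changed sign to 0.13 and Picalm to 0.27, and Abi3 and Sorl1 changed sign too. Bin1 stood at 0.54 and Grn at 0.17. The value for Abi3 used a transcript of 4006 bases that lies largely opposite Zfp652 and Phospho1. Mitochondrially encoded genes held 0.766% of counts in replicate 1 and 0.391% in replicate 2. Neither their part in the length trend nor that of other cells was tested.

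The pathways around the endocytic members were described from lists of genes. Of 15 clathrin and early endosome genes, 9 were more than 2-fold lower in replicate 2 and none higher (25.9% and 5.74% of all counted genes). These 9 were Cltc, Ap2a1, Ap2a2, Ap2b1, Dnm2, Epn1, Eps15, Rab5b and Rab5c, with log2 ratios from −3.38 (Ap2a1) to −1.09 (Rab5c). The 3 highest by TPM were Clta, a clathrin light chain (493 and 467), Dnm2, the dynamin that severs vesicles (301 and 107), and Ap2m1, a subunit of the AP2 adaptor (219 and 183). The list's median log2 ratio was −1.14, and −0.30 after the GC and length adjustment. After it 5 were still past 2-fold lower, against 12.7% of all genes. Retromer returns cargo such as Sorl1 from endosomes to the Golgi, and the GGA adaptors sort cargo from the Golgi towards endosomes. Among 11 genes of both, the adaptors Gga1 (−2.70) and Gga3 (−2.0) were more than 2-fold lower and none was higher. The shares of all counted genes were 25.9% and 5.74%, and the list's median was −0.03. The sorting nexins Snx5 (287 and 270.4 TPM), Snx6 (182 and 212 TPM) and Snx2 (152 and 169.7 TPM) were highest.

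Around Inpp5d and Plcg2, 7 of 13 genes that carry receptor signals to phospholipase and PI 3-kinase were more than 2-fold lower in replicate 2 and none was higher, against 25.9% and 5.74% of all counted genes. After the GC and length adjustment 2 of the 13 were lower and 1 was higher, against 12.7% and 9.70% of all genes. The 7 included the kinase Syk (−1.51), Vav3 (−1.09), the adaptor Grb2 (−2.15), the PI 3-kinase genes Pik3cd (−2.22) and Pik3cg (−2.31), and Pik3ap1 (−1.76). Tyrobp, the signalling chain of TREM2, was highest (8169.6 and 7260.0 TPM), followed by Vav1 (416 and 249 TPM) and Blnk (120.1 and 151 TPM). The list's median was −1.09, and −0.11 after adjustment. The WAVE complex list, which gives the partners of Abi3, had 8 of 10 genes counted, with Wasf1 and Wasf3 below the minimum. Wasf2 (−1.40), Cyfip1 (−1.15), Nckap1 (−1.06, on 19 and 16 counts), Nckap1l (−1.67) and Rac1 (−4.08) were more than 2-fold lower and Cyfip2 (1.11) was higher, 5 and 1 of 8, against 25.9% and 5.74% of all counted genes. After adjustment 1 was lower (Rac1) and 2 were higher (Cyfip2 and Rac2), against 12.7% and 9.70% of all genes. The list's median went from −1.11 to −0.05. Rac1, the GTPase that switches the complex on, went from 12270 to 1278 counts, and its adjusted ratio was −3.61, while Wasf2 stood at 0.08 and Cyfip1 at −0.17. The small subunit Brk1 (611 and 777 TPM), Rac2 (440.4 and 690.0 TPM), the blood cell relative of Rac1, and Nckap1l (291 and 73.4 TPM) were highest by mean.

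Of 6 genes that handle progranulin, none was more than 2-fold lower in replicate 2 and 2 were higher, against 25.9% and 5.74% of all counted genes. Psap, whose product travels with progranulin to the lysosome, stood at 2509 and 1759.9 TPM, and the protease gene Ctsl at 476 and 462 TPM. Slpi (109 and 538 TPM, log2 ratio 2.61) and Elane (1.97) were more than 2-fold higher in replicate 2. Slpi encodes an inhibitor that shields progranulin from elastase, the product of Elane, and Elane also belongs to the neutrophil markers that were higher in that library. The receptor Sort1 (−0.95) and Tmem106b (−0.57), itself a dementia risk gene, were within 2-fold.

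Other genes linked to the same diseases gave a frame for these levels. Of 31 such genes, 29 were counted, 6 were more than 2-fold lower in replicate 2 and 1 was higher, shares near or below the 25.9% and 5.74% of all counted genes. The median log2 ratio was −0.20, and after adjustment 4 were lower and 4 higher, against 12.7% and 9.70% of all genes. Il34 and Slc24a4 were below the minimum. Apoe (5605 and 4419 TPM), Ctsb (2759 and 1593 TPM) and Trem2 (799.9 and 815 TPM) were highest, so Grn lay between Ctsb and Apoe by mean level, and Bin1, Ms4a6d and Inpp5d lay below Trem2. The 6 lower genes were the proteases Adam10 (−1.77), Adam17 (−1.26), Ace (−3.15) and Adamts1 (−2.69), the receptor Epha1 (−2.55) and the endosomal Rin3 (−1.12), which works with Bin1 and the Rab5 GTPases. Clu, the gene of the lipoprotein clusterin, went from 97 to 1565 counts (log2 ratio 3.20). The choroid plexus markers, mostly Ttr, also summed higher in replicate 2 (23.7 and 365 CPM), and their part in the Clu value was not tested.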

How the data were processed

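RNA was sequenced from sorted CD11c–Ly6G–CD11b+CD45low cells after SMART-Seq HT amplification and Nextera XT tagmentation, which do not mark strand. The authors mapped 75-bp paired reads to GRCm38 with HISAT2 and counted them with HTSeq. Versions, annotation release and strand setting were not given in the sources used here. The deposited values are raw counts per Ensembl gene, not normalized. Symbols came from GENCODE M21 for 53620 of 53801 identifiers, and gene starts and ends were those of the deposited files, which for Bin1 and Cd2ap differ from M21. The members and lists were chosen with earlier results of these data known.

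CPM, TPM (merged M21 exons) and log2 ratios were computed in Python 3.11.15 with numpy 2.4.6, scipy 1.17.1 and pandas 2.3.3, with exact Poisson and conditional binomial intervals at 95%. A gene was kept where each library gave it 10 counts or more, and 2-fold was the limit used. Ratios were adjusted by subtracting the median of genes in the same of 10 by 10 bins of GC content and longest transcript length (GC bin alone under 20 genes). Alternatives were TMM (edgeR 4.0.16) and DESeq2 1.42.0 size factors, in R 4.3.3, totals without mitochondrial or neutrophil marker genes, other limits on fold and counts, longest transcript length, and each library alone. GC or length adjustment alone was added after the data were seen. The procedures were tested on simulated data. Genes named are the members, the 3 highest of each list by mean TPM, those past 2-fold, and genes whose exons overlap a member. Amph, Sorcs1, Sorcs3, Sort1 and Tmem106b, and genes below the minimum, were named after their values were seen. A gene of the signalling list is counted but not reported here by name. A count of 0 allows 0.128 and 0.0729 CPM in the 2 libraries. Each library came from 1 mouse, and their number, 2, limits every mean and SD.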

Additional observations from a re-analysis of the deposited data

How the results depend on the processing

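The median log2 ratio of the 10 genes was −0.42 on file totals, −0.17 with TMM, −0.15 with DESeq2 size factors, −0.43 without mitochondrial genes, −0.34 without neutrophil marker genes, and 0.15 after the GC and length adjustment. With that adjustment Plcg2 (0.13), Picalm (0.27), Abi3 and Sorl1 changed sign. Then 0 members were more than 2-fold lower and 2 were more than 2-fold higher, against 12.7% and 9.70% of all genes. Besides that of Plcg2, the adjustment moved 4 ratios by more than the SD of all genes, to −0.72 (Inpp5d), −0.37 (Abca7) and 1.14 (Abi3 and Sorl1). With TMM and with DESeq2 size factors, Sorl1 and Ms4a6d changed sign, as did Sorl1 without neutrophil marker genes. With length adjustment alone, chosen after seeing the data, 2 members were more than 2-fold lower, and 2 passed a limit of 3-fold on the CPM scale. The shares of all genes under those settings are not given, so neither count can be set against them. By TPM, 5 of the 10 genes held their rank in replicate 2 alone, and the range over the single libraries was 5 to 10. With the length of the longest transcript, the share within the family was 36.2% for Bin1, 87.8% for Plcg2 and 24.4% for Cd2ap. Without neutrophil marker genes, the mean levels of Grn (3734 CPM) and Sorl1 (41.3 CPM) moved by more than 1 SD, and the other 8 did not. The means of those 8 rose as well, such as Bin1 (774 to 804 CPM) and Ms4a6d (256 to 265 CPM). The SDs of Grn (93.3 CPM) and Sorl1 (1.28 CPM) were small beside their means, so this limit does not single them out as more sensitive. The cause of these differences was not tested. With 2 libraries, a mean without 1 of them always lies within 1 SD, which says nothing of stability. No paired analysis was possible because both libraries belong to 1 group.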
